A study of Homo sapiens with 102 samples.

Results

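The 10 genes described here encode enzymes of glycolysis and of lactate formation, without the hexokinase and phosphofructokinase steps: GPI, ALDOA, TPI1, GAPDH, PGK1, PGAM1, ENO1, PKM, LDHA and LDHB. They were chosen by their place in the pathway, not by a measured value, though earlier results of these data were known. They are 10 of the 24965 genes in the count table. All 10 had a row, found by Ensembl identifier. The libraries came from K562, an established chronic myelogenous leukemia line that carries the BCR-ABL fusion. Single cells were enclosed in picolitre droplets together with a pair of drugs and kept there for 12 h. Droplets with the same pair shared a barcode combination, so each drug-pair library is a pool of many cells. Each position of a pair held DMSO (the solvent), Imatinib (which inhibits the BCR-ABL kinase), Trametinib (an inhibitor of the MEK kinases) or the compound labelled YM115, and the labels gave no dose. The 16 ordered pairs were each prepared in 3 runs in each of 2 screens, named dT and Bio, which differed in the drug source that carried each kind of barcode. Each screen also had 3 separate DMSO controls, so that there were 102 libraries in all. The comparisons ask whether a drug, a pair, the position of a drug in the pair or the barcoding mode was associated with a different level of these transcripts.

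Glycolysis splits glucose into pyruvate in the cytosol, and the second stage of the pathway, from GAPDH to PKM, gives the net yield of ATP and NADH. LDHA and LDHB then interconvert pyruvate and lactate, which renews the NAD+ that GAPDH needs. Transcripts of these enzymes are abundant in most proliferating cells, and several of the genes are targets of MYC and of the hypoxia-inducible factors.

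The libraries differed in depth and in the number of detected genes, which bears on the weaker genes. The 48 dT libraries held 127042 to 759756 counts and 1837 to 5110 detected genes. In Bio, 44 of 48 libraries had at least 1000 detected genes and were used, and the 3 Imatinib_Imatinib libraries and run 1 of DMSO_Trametinib were left out. The separate controls held 256671 to 458945 counts in dT and 35742 to 89347 in Bio, yet with 7410 to 10361 and 5501 to 7058 detected genes they covered more of the transcriptome than any library with drug pairs. Mitochondrial genes took more than 15% of the counts in 4 of the 6 separate controls. Among the markers of the line, HBG2 (fetal hemoglobin) was counted in all 48 dT and all 44 Bio libraries, HBZ in 48 and 41, and GATA1 in 38 and 24. Of the markers of other cells, CD3E (T cells) and MS4A1 (B cells) had no count in these libraries.

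The cDNA of the method was bound to beads and released with MseI, an enzyme that cuts at TTAA, so the sites in each transcript are shown before the levels. On the GENCODE transcript chosen for each gene (GRCh38), ENO1-201 (1781 bases) and TPI1-202 (1231 bases) had 0 sites. GPI-201, GAPDH-201 and PKM-201 had 1 each, ALDOA-202 and PGAM1-201 had 3 each, LDHB-201 had 9, LDHA-205 had 16 and PGK1-201 had 27. Other annotated transcripts differed, with 0 to 2 sites for ENO1, 0 for all of TPI1, 1 to 16 for LDHA and 12 to 27 for PGK1. Of 14879 genes with a chosen transcript, 92.8% had at least 1 site, so ENO1 and TPI1 belong to a small minority. The sites below are the single site of GPI, GAPDH and PKM, the 3 sites of PGAM1, and the site nearest the 3′ end of the others. TTAA is in capitals, and each is written 5′ to 3′ on the strand of the gene.
GPI, coding exon, chr19:34377760-34377763, plus strand: actgaagcccTTAAgccatactct
GAPDH, coding exon, chr12:6536532-6536535, plus strand: agggctgcttTTAActctggtaaa
PKM, coding exon, chr15:72217458-72217461, minus strand: aaggagatgaTTAAgtctggaatg
ALDOA, 3′ UTR, chr16:30070405-30070408, plus strand: aaacagctatTTAAggg
PGAM1, 3′ UTR, chr10:97432788-97432791, plus strand: ccaacagagtTTAAaagtagtgac
PGAM1, 3′ UTR, chr10:97433074-97433077, plus strand: tcgttatgtgTTAAtttactttta
PGAM1, 3′ UTR, chr10:97433088-97433091, plus strand: tttacttttaTTAAaaaagtatag
LDHA, 3′ UTR, chr11:18408328-18408331, plus strand: accccatctgTTAAaaaaacaaaa
LDHB, 3′ UTR, chr12:21635355-21635358, minus strand: acaaataaaaTTAActattgtagt
PGK1, 3′ UTR, chrX:78129276-78129279, plus strand: tatagatataTTAAaatgtaaatg

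In the first stage of the pathway, GPI (ENSG00000105220, chr19:34359480-34402413) converts glucose-6-phosphate into fructose-6-phosphate. It was counted in 47 of 48 dT libraries, with 0, 522 and 1619 CPM (counts scaled to a library total of 1e+06; the lowest, the median and the highest library), and in 36 of 44 Bio libraries, with 0, 351 and 4432 CPM. ALDOA (ENSG00000149925, chr16:30064164-30070457), the aldolase that splits fructose-1,6-bisphosphate, was counted in 42 dT libraries at 0, 265 and 1377 CPM and in 33 Bio libraries at 0, 46.1 and 2458 CPM. Both genes thus ranged from no count to more than 1000 CPM within a screen. TPI1 (ENSG00000111669, chr12:6867119-6870948), which interconverts the 2 triose phosphates, was counted in 48 dT libraries at 55.5, 1621 and 3272 CPM and in 41 Bio libraries at 0, 1507 and 4334 CPM.

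In the second stage, GAPDH (ENSG00000111640, chr12:6533927-6538374) oxidises glyceraldehyde-3-phosphate. It was counted in 48 dT libraries at 5.44, 395 and 1780 CPM and in 43 Bio libraries at 0, 534 and 3488 CPM. ENO1 (ENSG00000074800, chr1:8861000-8879250), the enolase that forms phosphoenolpyruvate, was counted in every dT library at 2803, 6290 and 17427 CPM and in every Bio library used at 1416, 5800 and 14639 CPM. Among the libraries used, it was the single member never at 0 in either screen. PKM (ENSG00000067225, chr15:72199029-72231822), the pyruvate kinase of most proliferating cells, was counted in 48 dT libraries at 7.87, 726 and 3079 CPM and in 42 Bio libraries at 0, 844 and 4597 CPM.

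PGK1 (phosphoglycerate kinase, ENSG00000102144, chrX:77910739-78129296) and PGAM1 (phosphoglycerate mutase, ENSG00000171314, chr10:97426160-97433441) act between GAPDH and ENO1, and both were nearly absent from the counts. PGK1 was counted in 6 dT and 6 Bio libraries. In 10 of the 16 dT pairs and 10 of the 14 Bio pairs with 3 libraries used, all 3 were at 0. Its highest level was 377 CPM (195 counts) in run 1 of Bio Trametinib_Imatinib, against 33.3 CPM in run 2 and 0 in run 3. In dT it reached 173 CPM in run 2 of Trametinib_YM115 and 139 CPM in run 1 of YM115_Trametinib, and the other runs of both pairs were at 0. PGAM1 was counted in 6 dT and 4 Bio libraries, with at most 129 CPM (52 counts) in run 2 of dT YM115_YM115 and 49.2 CPM in run 1 of Bio Imatinib_YM115. Apart from PGK1 in Bio Trametinib_Imatinib, each of these levels stood in a single run of its pair. The separate controls were equally poor, with PGK1 counted in 2 of 6 and PGAM1 in 1 of 6.

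The lactate dehydrogenase subunits were also rare. LDHA (ENSG00000134333, chr11:18394388-18408425), the subunit abundant in muscle and in many tumors, was counted in 40 dT libraries at 0, 36.2 and 273 CPM but in 18 of 44 Bio libraries. The Bio values were uneven, with 10 libraries between 243 and 906 CPM, 8 between 6.11 and 46.6 CPM and 26 at 0. LDHB (ENSG00000111716, chr12:21635342-21757857), the subunit abundant in heart, was counted in 4 of 48 dT libraries, at 333 CPM (66 counts) in run 3 of DMSO_DMSO, 68.2 CPM in run 3 of DMSO_YM115, 13.1 CPM in run 1 of Trametinib_YM115 and 3.22 CPM in run 3 of Imatinib_DMSO. It had 0 counts in all 44 Bio libraries. All 6 separate controls had a count of it, at 11.7, 26.1 and 53.7 CPM in dT and 20.1, 33.6 and 56.0 CPM in Bio. The Bio values rest on 1 to 3 counts each.

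**Figure D1:**
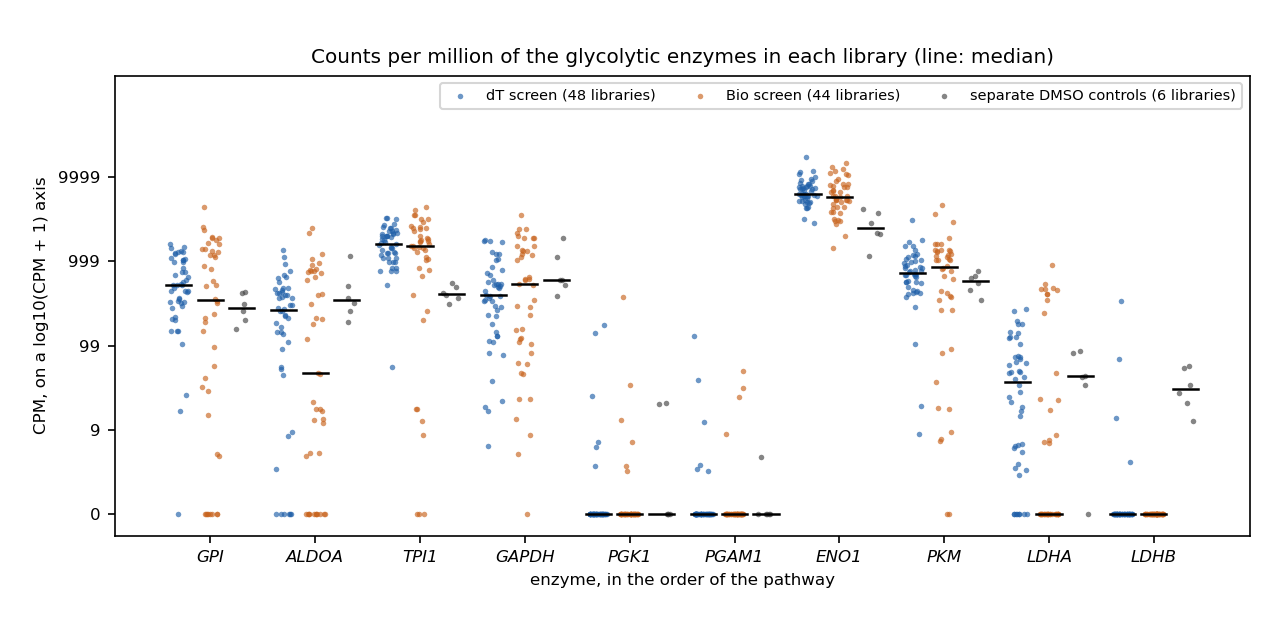
CPM of each enzyme in every library (points) on a log10(CPM + 1) axis, with a line at each median, in the order of the pathway, for the 48 dT libraries, the 44 Bio libraries and the 6 separate DMSO controls. ENO1 lies highest and has a count in every library, and PGK1, PGAM1 and LDHB lie at 0 in most drug-pair libraries.

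Scaled by transcript length, the mean level over the dT libraries was highest for ENO1, at 3921 ± 1398 CPM per kb (SD, n = 48). TPI1 followed at 1366 ± 600.0 CPM per kb, and GPI, PKM, GAPDH and ALDOA had means of 307, 303, 289 and 198 CPM per kb. LDHA had 23.9, LDHB 6.67, PGAM1 2.12 and PGK1 1.5 CPM per kb. The gaps from ENO1 to TPI1 and from TPI1 to GPI exceeded the larger SD of the neighbours, and no other gap did. In Bio, ENO1 had 3636 ± 1741 and TPI1 1295 ± 948 CPM per kb (SD, n = 44), and that was the single gap beyond the SD. The libraries read mainly the 3′ ends of transcripts, for which a scaling by length is approximate.

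As a share of the members' summed counts, not scaled by length, ENO1 took a median of 63.1% in dT (41.6% to 86.8%) and 56.6% in Bio. TPI1 took a median of 15.4% and 14.5%. The 10 genes together held 0.597% to 2.01% of all counts in dT, with a median of 1.13%, and 0.386% to 2.00% in Bio, with a median of 1.06%. The separate controls held less at the median, with 0.318% to 0.749% in dT and 0.452% to 0.792% in Bio. The highest value of each screen came from its 1 separate control with at most 15% mitochondrial counts. Both of these lay within the range of the drug-pair libraries. The mean of log2(CPM + 1) over the 10 genes gave another order, since it weights each gene equally. It was 6.33 at the median in dT (4.2 to 7.38) and 5.57 in Bio (3.26 to 7.70), against 6.73 ± 0.88 and 6.64 ± 0.29 in the separate controls (SD, n = 3 each). This mean moved with depth, with a Pearson r with log2 total counts of 0.28 over the dT and 0.60 over the Bio libraries. The part of depth in it was not tested.

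Among the libraries of a screen the members varied far more than counting error gives when each read is taken as independent. The cDNA was amplified by PCR and no collapse of copies was described, so the error of sampling molecules may be larger. The coefficient of variation (CV) of the CPM of ENO1 was 35.7% over the dT and 47.9% over the Bio libraries, where its counts alone would give 2.06% and 2.42%. For TPI1 it was 43.9% and 73.2%, for PKM 62.8% and 100%, for GPI 70.1% and 121%, for GAPDH 90.9% and 107%, for ALDOA 94.6% and 149% and for LDHA 120% and 194%. Much of this stood between runs of the same pair. The median CV over the 3 runs of a pair in dT was 25.5% for ENO1, 35.5% for TPI1, 35.7% for PKM and 64.0% for GPI. Other genes of like level varied to a similar or larger degree, with a median CV of 32.4% beside ENO1, 57.7% beside TPI1 and 89.2% beside GPI in dT. Neither the cell number per library nor the RNA per cell was measured, and a change in either cannot be told apart from the other.

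**Figure D2:**
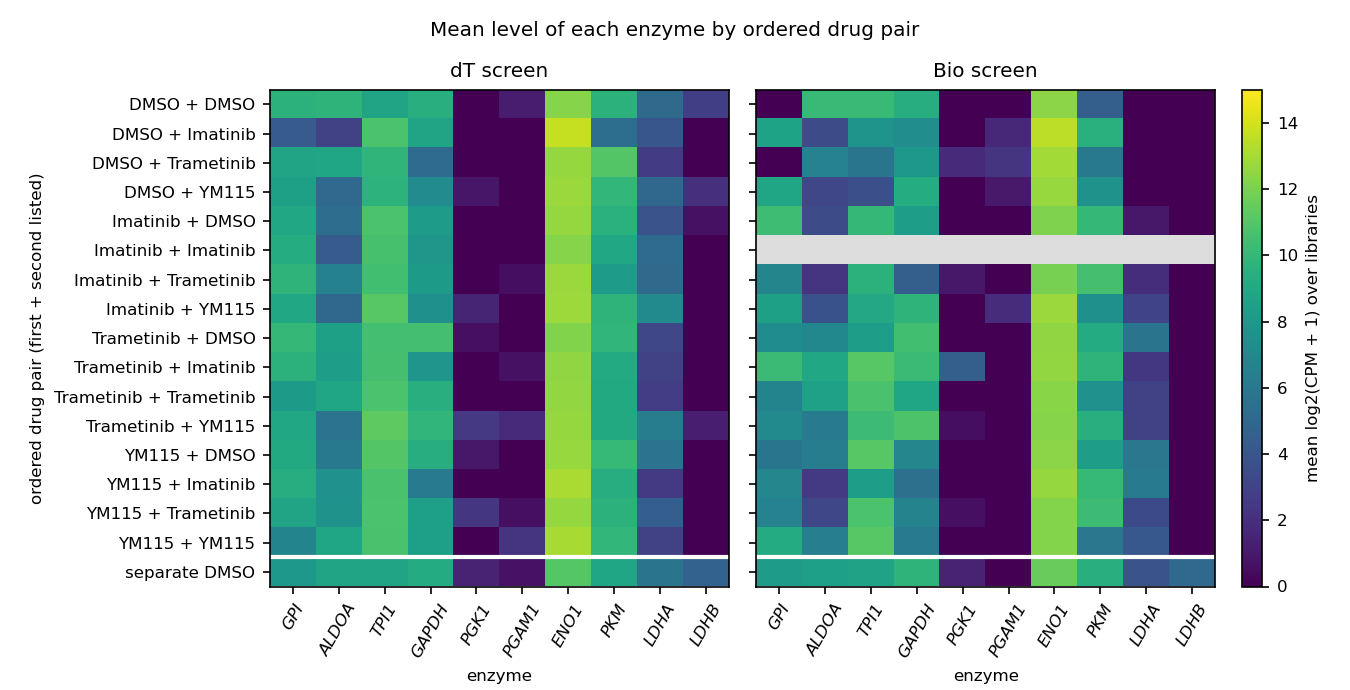
Heat map of the mean log2(CPM + 1) over the libraries used (color), with ordered drug pairs and the separate DMSO controls in rows and the 10 enzymes in columns, one panel per screen. The ENO1 column is high in every row, LDHB is at 0 in all drug pairs of Bio but not in its separate controls, and GPI is at 0 in Bio DMSO_DMSO and DMSO_Trametinib. The gray row is Bio Imatinib_Imatinib, which was left out.

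The first comparison asked whether a library that held a drug in either position differed from one that did not. In each screen 7 members could be tested, since PGK1, PGAM1 and LDHB had too few counts. In dT, 0 of 7 members changed with Imatinib, Trametinib or YM115 (edgeR quasi-likelihood test, Benjamini-Hochberg adjusted p over all genes tested), where 2.88%, 1.37% and 2.62% of all genes were called. At an unadjusted p of 0.05, 3, 0 and 1 members passed. In Bio, 0 of 7 members changed with any of the 3 drugs, where 2.34%, 1.94% and 2.74% of all genes were called, and 0, 0 and 1 members passed unadjusted. DESeq2 called 0 members for these 6 effects except 1 for YM115 in Bio. The median log2 fold change of the members in dT was 0.09 with Imatinib, 0.07 with Trametinib and 0.06 with YM115, beside 0.07, 0.23 and 0.21 over all genes. In Bio the members' medians were -0.00, 0.29 and -0.02, beside 0.12, 0.30 and 0.53.

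ENO1, TPI1 and PKM were the members past an unadjusted p of 0.05 with Imatinib in dT. ENO1 stood at 2803, 7246 and 17427 CPM (lowest, median, highest) in the 21 libraries with it and at 3188, 6238 and 9102 CPM in the 27 without. The groups overlapped, and the log2 fold change was 0.31 (SE 0.14, adjusted p = 0.297). For PKM, the 21 libraries held 7.87, 649 and 1177 CPM and the 27 held 373, 826 and 3079 CPM. The level with Imatinib was the lower in all 3 runs, and the log2 fold change was -0.71 (SE 0.35, adjusted p = 0.341). The Bio estimate for PKM had the other sign, at 0.44 (SE 0.75). TPI1 gave log2 changes of 0.57 (SE 0.27, adjusted p = 0.331) with Imatinib and 0.65 (SE 0.26, adjusted p = 0.200) with YM115. With YM115 it stood at 518, 1987 and 3216 CPM, and without it at 55.5, 1422 and 3272 CPM, in groups that overlapped over most of their range.

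ALDOA had the lowest Imatinib estimates in both screens. In dT the libraries with Imatinib held 0, 144 and 573 CPM and those without 0, 368 and 1377 CPM, lower with the drug in all 3 runs, and the fitted log2 change was -1.12 (SE 0.66, adjusted p = 0.469). In Bio the medians were 11.8 and 247 CPM, and the log2 fold change was -1.52 (SE 1.22, adjusted p = 0.623). There the level was the higher with Imatinib in 1 of 3 runs. These errors left both estimates short of a call. GAPDH had a log2 fold change with Trametinib of 0.62 (SE 0.49) in dT and 0.50 (SE 0.77) in Bio. The level was the higher with the drug in all 3 runs of dT and in 2 of 3 runs of Bio. LDHA with YM115 in Bio had the largest estimate, 5.39 (SE 2.66, adjusted p = 0.307). Of the libraries with YM115, 10 of 21 had a count, and of those without it 8 of 23. The median was 0 CPM in both groups and the highest libraries held 906 and 473 CPM. DESeq2 called this difference (log2 fold change 5.89, adjusted p = 0.0135), and over all alternatives the adjusted p ranged from 0.0135 to 0.748.

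**Figure D3:**
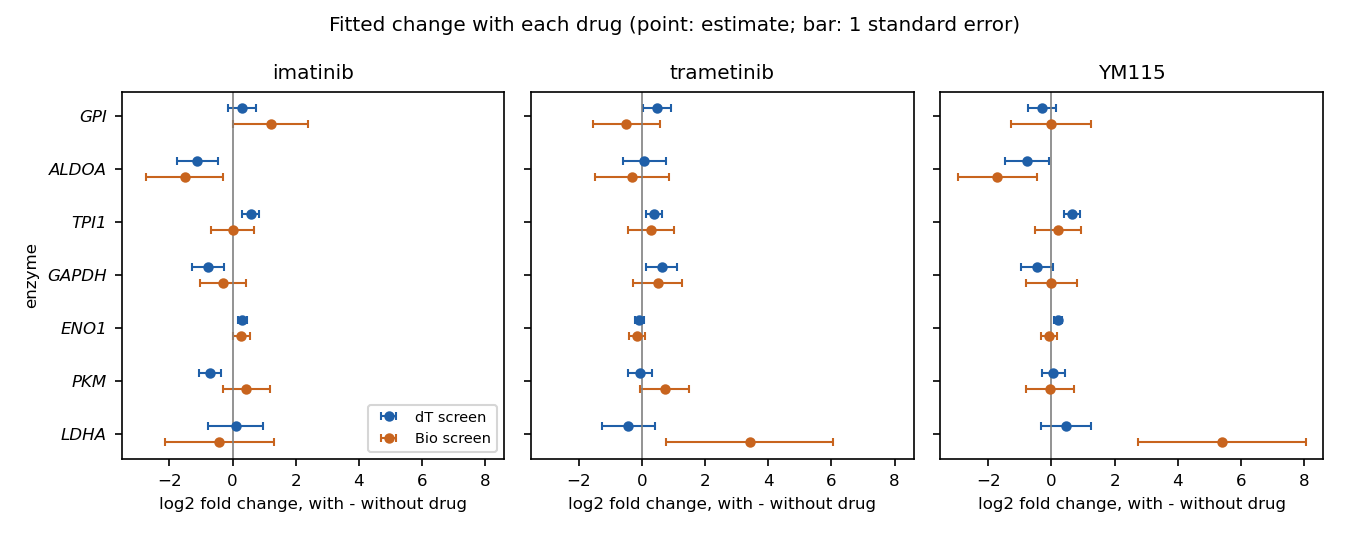
Log2 fold change of each tested enzyme with Imatinib, Trametinib and YM115 in the dT and Bio screens, with points for the edgeR estimate and bars for 1 SE on each side. No estimate passed an adjusted p of 0.05, and the widest bars belong to LDHA in Bio, followed by GPI and ALDOA in Bio.

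Summed over the members, the share of all counts in dT was 1.14% ± 0.304 with and 1.08% ± 0.156 without Imatinib (SD, n = 21 and 27). It was 1.06% ± 0.160 with and 1.14% ± 0.273 without Trametinib, and 1.14% ± 0.145 with and 1.08% ± 0.282 without YM115. In Bio the share was 1.19% ± 0.468 with and 1.06% ± 0.228 without Imatinib (SD, n = 18 and 26). The mean log2(CPM + 1) in dT was 5.93 ± 0.68 with and 6.43 ± 0.47 without Imatinib, while in Bio it was 5.57 ± 1.07 with and 5.38 ± 0.95 without. The libraries with and without each of these drugs overlapped in range, and no test was made of these sums and means.

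Across the ordered pairs as single conditions, 0 of 7 members differed in dT, where 0.303% of all genes were called, and 0 of 7 in Bio, where 22.9% were called (edgeR; 1 member in each screen at an unadjusted p of 0.05). ENO1 came nearest in dT, with F = 2.47 and an adjusted p of 0.0636 (0.0477 to 0.567 over the alternatives). When the run was not used as a block, that p was 0.0477, which is a call. GPI came nearest in Bio, with F = 1.97 and an adjusted p of 0.0577 (0.0513 to 0.969). It had 0 counts in all 3 DMSO_DMSO libraries of Bio and in both DMSO_Trametinib libraries used.

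The following pairs were picked after their values were seen and are given without a test. ENO1 was highest in DMSO_Imatinib in both screens. The runs held 17427, 11526 and 10864 CPM in dT, and 12401, 8855 and 14639 CPM in Bio. The same drugs in the other order, Imatinib_DMSO, held 4237, 9472 and 6133 CPM in dT and 3008, 5906 and 4984 CPM in Bio. The orders did not overlap in either screen. ALDOA was highest in DMSO_DMSO in both screens, with 1109, 419 and 1377 CPM in dT and 2183, 760 and 905 CPM in Bio. PKM in dT was highest in DMSO_Trametinib, at 1799, 3079 and 1504 CPM, and lowest in DMSO_Imatinib, with a median of 18.1 and a maximum of 436 CPM. TPI1 in dT was lowest in DMSO_DMSO, at 832, 1686 and 55.5 CPM, a spread that covered most of the range of the screen. DMSO_Imatinib in dT thus held the highest pair mean of ENO1 and the lowest of GPI and PKM.

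**Figure D4:**
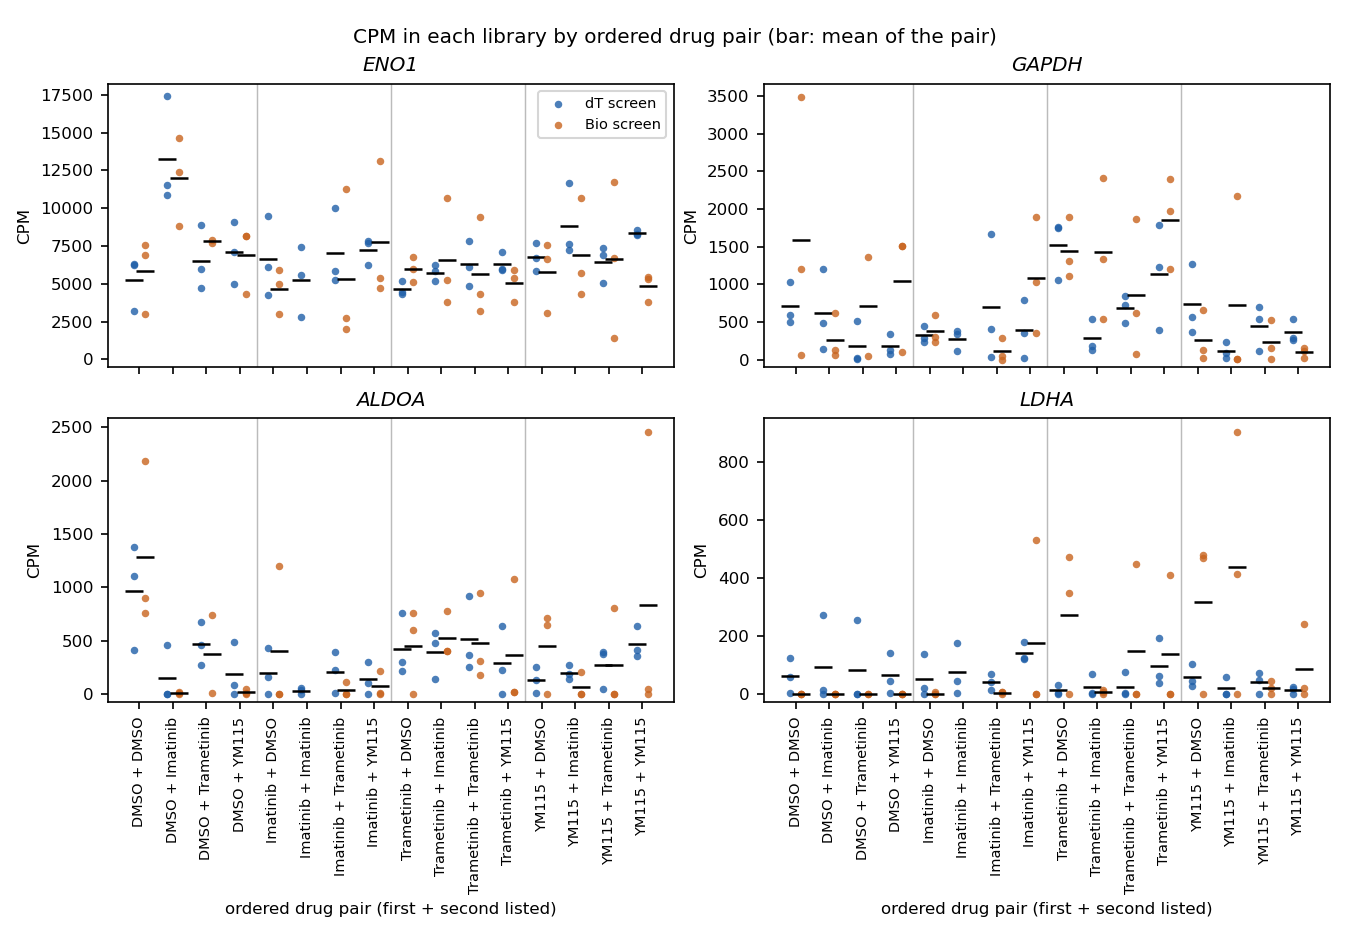
CPM of ENO1, GAPDH, ALDOA and LDHA in each library (points) by ordered drug pair along the horizontal axis, with a bar at the mean of the pair, for both screens. ENO1 reaches 17427 CPM in dT and 14639 CPM in Bio with DMSO_Imatinib, ALDOA has its highest pair means with DMSO_DMSO, and LDHA is at 0 in Bio wherever DMSO is listed first.

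Across 14 pairs with all runs used in both screens, the pair means of ALDOA had a Pearson r of 0.66 between the screens, ENO1 0.61, GAPDH 0.41 and TPI1 0.31. GPI, PKM and LDHA had -0.28, -0.31 and -0.23. The median over 909 genes counted in at least 50% of the libraries was 0.14, with quartiles of -0.07 and 0.39. The points of such an r share drugs and screens, and it is a description only. Correlations among the members within a screen were weak and of both signs. Over the 15 pairs among the 6 most counted members, r across libraries ran from -0.43 to 0.42 in dT with a median of -0.06, and from -0.29 to 0.21 in Bio with a median of -0.00. The genes most like the mean of the members in both screens were GUK1, NDUFS8, LMNA, HES4 and SLC1A5, out of 896 compared, with a lower r of the 2 screens of 0.38, 0.37, 0.36, 0.35 and 0.35. The run mean was subtracted first, but depth, with which the mean of the members moved, was not removed.

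The position of a drug in the label was tested next, since the study loaded the same drugs on both injection sources. The labels do not say which source is written first. In dT, 0 of 7 members differed by position, where 10.7% of all genes were called (edgeR; 0 members at an unadjusted p of 0.05). In Bio, 1 of 7 differed, against 21.1% of all genes, and that member was LDHA, with F = 5.0 and an adjusted p of 0.0354. LDHA had 0 counts in all 11 Bio libraries with DMSO listed first, where 3 counts would have been 10.1 to 36.7 CPM. With Imatinib first it had a median of 0 CPM and a maximum of 532 CPM (9 libraries), with Trametinib first 3.87 and 473 CPM (12), and with YM115 first 34.4 and 906 CPM (12). The call was lost when run 2 or run 3 was left out (adjusted p = 0.105 and 0.203) and when log2 total counts entered as a covariate (adjusted p = 0.0553), within a range of 0.0230 to 0.203 over the alternatives.

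GAPDH showed the same order in both screens without passing the test. With Trametinib first, it stood at 130, 783 and 1780 CPM (lowest, median, highest) in dT and at 79.8, 1325 and 2412 CPM in Bio. With Trametinib second, it stood at 5.44, 497 and 1672 CPM in dT and at 0, 153 and 1868 CPM in Bio. The 3 Trametinib_Trametinib libraries of each screen are in both groups. Without them, Bio ran from 542 to 2412 CPM with Trametinib first and from 0 to 1363 CPM with it second, and dT from 130 to 1780 and from 5.44 to 1672 CPM. The ranges still overlapped, and the adjusted p for position was 0.455 in dT and 0.161 in Bio. ENO1 had adjusted p-values of 0.344 in dT and 0.367 in Bio for position. In dT, scaling by the size factors of DESeq2 took the p for ENO1 to 0.0232, the lowest of a range that reached 0.607.

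A departure from additive drug effects was tested over the pairs. In dT, 0 of 7 members departed, where 9.77% of all genes were called, and 0 of 7 in Bio, where 14.0% were called (edgeR). At an unadjusted p of 0.05, 0 members passed in dT and 2 in Bio. These were GPI, with F = 3.86 and an adjusted p of 0.0709, and LDHA, with F = 3.14 and an adjusted p of 0.113, both with all 3 Bio DMSO_DMSO libraries at 0.

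The separate DMSO controls were then set against the DMSO_DMSO pair of the same screen. In dT, 0 of 8 members differed, LDHB being tested here too, where 0.116% of all genes were called (edgeR; 0 members at an unadjusted p of 0.05). In Bio, 0 of 7 differed, where 0.0487% were called, and 1 member passed unadjusted. The members' median log2 fold change, separate over in-pair, was -0.63 in dT and -0.83 in Bio, while the median over all genes was 3.39 and 5.34. With the size factors of DESeq2 these all-gene medians were 2.32 and 4.06. A gene could pass the count filter through the separate controls, which detected 7410 to 10361 genes in dT and 5501 to 7058 in Bio. The DMSO_DMSO libraries detected 2639 to 2967 and 1071 to 1538. The all-gene medians carry this difference in detection and are no like-for-like background for the members. ENO1 stood at 1145, 2124 and 3698 CPM in the separate dT controls and the fitted log2 change was -0.73 (SE 0.36, adjusted p = 0.296). With the size factors of DESeq2 it was -1.91 (adjusted p = 0.00503), in a range of adjusted p from 0.00503 to 0.988. GPI was the member that passed unadjusted in Bio: the separate controls held 201, 308 and 425 CPM and the 3 DMSO_DMSO libraries 0. The mean of these controls was 11.2 times a floor of 3 counts per library (27.7 CPM on average), and the adjusted p was 0.327 (edgeR). This ratio is not a lower bound, since GPI ranged from 0 to 4432 CPM over the Bio libraries, with 8 of 44 at 0.

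All libraries of the screen were also set against the separate controls, as a description. The ratio in dT of the mean CPM in the drug-pair libraries to that in the separate controls was 3.85 for TPI1, 3.01 for ENO1, 2.26 for GPI, 1.83 for PKM, 1.03 for LDHA, 0.801 for GAPDH, 0.560 for ALDOA and 0.285 for LDHB. For the rarely counted PGAM1 and PGK1 it was 3.03 and 1.14, each against 1 separate dT control with a count. The ratios in Bio were 3.93, 2.11, 2.51, 1.39, 2.91, 0.785, 1.05 and 0 in the order of the first 8 genes, and 1.47 for PGK1, while PGAM1 had no count in the separate Bio controls. TPI1 and ENO1, with 0 MseI sites, and PGAM1, with 3, had ratios above 3 in dT. LDHB, with 9 sites, had the lowest ratio, and LDHA with 16 and PGK1 with 27 were above 1 in both screens. The ratios of PGK1 rest on 5 counts in the separate dT controls and 1 in Bio, and that of LDHA in Bio on 7. In dT the median of LDHA was 36.2 CPM in the drug-pair libraries and 42.9 CPM in the separate controls. Among genes counted in all 6 separate controls with transcripts of 1000 to 2000 bases, the median log2 of this ratio in dT was 0.75 for those with 0 sites, 0.44 with 1, 0.22 with 2 to 3, -0.15 with 4 to 8 and -0.48 with 9 or more. In Bio the first and last of these were 0.51 and -0.89. Whether the separate controls went through the same digestion is not stated in the sources used here, and the part of the sites in these levels was not tested.

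**Figure D5:**
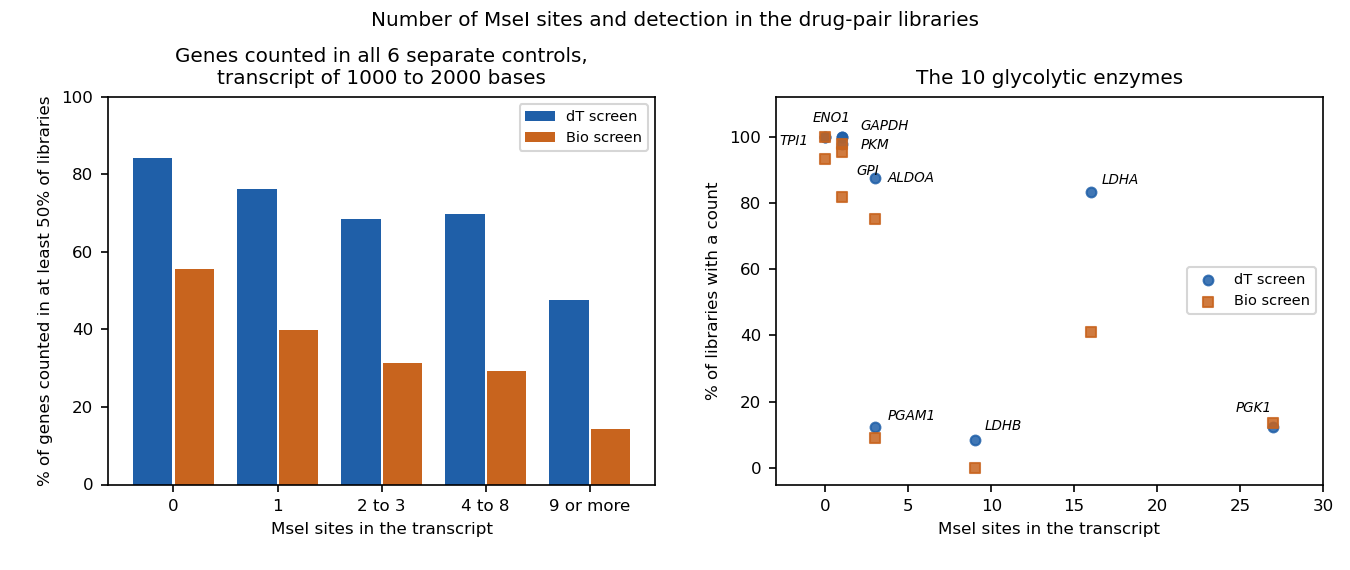
The left panel gives, by number of MseI sites in the transcript, the percent of genes counted in at least 50% of the libraries of each screen (bars), among genes counted in all 6 separate controls with transcripts of 1000 to 2000 bases, and the right panel gives the percent of libraries with a count for each enzyme against its number of sites. The bars fall from 84.3% with 0 sites to 47.6% with 9 or more in dT and from 55.6% to 14.3% in Bio, while LDHA, with 16 sites, had a count in 83.3% of the dT libraries and PGAM1, with 3, in 12.5%.

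Between the screens, 0 of 7 members differed, where 39.0% of all genes were called (edgeR; 0 members at an unadjusted p of 0.05). The median log2 fold change of dT over Bio was 0.19 for the members and 1.62 for all genes tested, or 1.35 with the size factors of DESeq2. ENO1 had 0.24 (SE 0.13, adjusted p = 0.129), and its sign depended on the scaling, with -0.37 (adjusted p = 0.0322) under the size factors of DESeq2, in a range of adjusted p from 0.0322 to 0.607. A drug effect that differed between the screens was found for 0 of 7 members, where 26.2% of all genes were called (edgeR; 0 members at an unadjusted p of 0.05). The lowest adjusted p was 0.366, for LDHA.

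The surrounding pathway gave 43 further genes in the table, in lists of glucose uptake and upper glycolysis, other isoenzymes, lactate and pyruvate fate, the pentose phosphate and glycogen branch, and regulators. For the drug effects 16 of them could be tested in dT and 10 in Bio, and 0 were called for Imatinib, Trametinib or YM115 in either screen. HK1, the hexokinase that starts the pathway, was counted in 48 dT and 38 Bio libraries at medians of 577 and 571 CPM, while HK2 was counted in 4 and 3. Across the ordered pairs, 0 of 23 were called in dT (0.303% of all genes) and 9 of 18 in Bio (22.9% of all genes), among them the glucose transporter SLC2A1 (adjusted p = 0.0289). By position, 1 of 16 was called in dT, the regulator MYC (adjusted p = 0.00484), and 4 of 12 in Bio, SLC2A1, MPC1, PGD and VHL, beside 10.7% and 21.1% of all genes. Non-additivity was called for 4 of 23 in dT (PFKFB4, PDK1, PDHA1 and ARNT) and for 2 of 15 in Bio (PGLS and EPAS1), beside 9.77% and 14.0% of all genes. Against the separate controls 0 of 25 were called in dT and 0 of 23 in Bio, beside 0.116% and 0.0487% of all genes.

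Between the screens 7 of 21 of these genes were called, all higher in dT, where 39.0% of all genes were called and 1994 of those 2017 were higher in dT. The phosphofructokinase subunit PFKP had a fitted log2 change of 4.61 (SE 0.79, adjusted p = 7.66e-06) and BSG, a partner of the lactate transporters, 3.53 (SE 1.02, adjusted p = 0.00432). SLC2A1, PFKFB4, SLC16A1, PDK1 and ENO3 had values between 1.36 and 2.67. These genes stood on either side of the all-gene median of 1.62, and ENO3, an isoenzyme of ENO1, was the 1 below it. A drug effect that differed between the screens was called for 3 of 19, SLC2A1, PFKFB4 and PDK1, beside 26.2% of all genes. The 7 members tested had 0 calls in both of these comparisons. Without the low-count filter, LDHB was called between the screens (adjusted p = 0.0166) and PGK1 for the drug effect by screen (adjusted p = 0.0121). LDHB had counts in 4 dT libraries and in no Bio library, and PGK1 in 6 dT and 6 Bio libraries.

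Reads shared with near copies bear on some of the levels. The table held 48 pseudogenes of GAPDH, with 5.82% of the counts of gene and copies together, and 7 of PGAM1, with 56.1% (133 counts beside 104 for the gene), so the level of PGAM1 is uncertain. PGK1 overlaps ATP7A on the same strand, which had 209 counts beside 371. TPI1 overlaps SPSB2 on the opposite strand, which had 518 counts beside 49046 for TPI1. Whether strand was used in counting is not given in the sources used here.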

How the data were processed

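The values deposited by the authors were raw counts of reads for 24965 genes in 102 libraries. Per the labels the reads were aligned with STAR 2.4.2a to GRCh38 (the submitters' processing notes), and neither strand setting nor annotation is given in the sources used here. No collapse by molecular identifiers was described, so counts may include amplified copies of the same molecule. Floors and counting errors treat each read as independent and may be too small. The SEs of the fits and the SDs include the spread between libraries. Samples were grouped by their titles. The 10 members and the wider lists were chosen with earlier results of these data known. All 10 members were named in each comparison, and a listed gene where it passed one or to say what could be tested.

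Drug-pair libraries with at least 1000 detected genes and at most 15% mitochondrial counts were used, and all 6 separate controls. Levels are CPM of all counts, and log scales use log2(CPM + 1). Comparisons were run with edgeR 4.0.16 in R 4.3.3 (TMM, filterByExpr, quasi-likelihood F test, run as a block within a screen, Benjamini-Hochberg threshold 0.05 over all genes tested). The labels number 3 replicate runs shared by all pairs, and deviations correlated at 0.0254 in dT and 0.0327 in Bio within a run, against -0.0127 and -0.0163 between runs. The study describes the runs as biological replicates, and the labels name no culture behind each run. DESeq2 1.42.0 was an alternative, beside other scalings, filters, covariates and left-out runs. Comparisons within a screen share libraries, so their values are not independent. The scripts were tested on simulated counts. MseI sites were read from GENCODE release 29 transcripts on GRCh38, and identical replicates were looked for in 102 pairs of libraries, with 0 found. A deposited file of sample annotation repeats the labels and was not used. Some results on genes outside the 10 members are not reported here.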

Additional observations from a re-analysis of the deposited data

Results flagged for a closer look

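The 4 Bio libraries left out for too few detected genes entered no comparison, and 5 values of the members in them lay above every DMSO_DMSO library and every separate control of the screen. GAPDH reached 22432 CPM (681 counts) in run 1 of Imatinib_Imatinib, against at most 3488 CPM in the controls and in any Bio library used. ENO1 reached 15479 CPM in run 1 of DMSO_Trametinib, against at most 7579 CPM in the controls, and 10434 CPM in run 2 of Imatinib_Imatinib, while runs 1 and 3 of that pair had 0 counts of it. GPI reached 2013 CPM on 36 counts in run 3 of Imatinib_Imatinib, against at most 425 CPM in the controls. TPI1 reached 2789 CPM in run 1 of DMSO_Trametinib, against at most 1430 CPM in the controls, and had 0 counts in the 3 Imatinib_Imatinib libraries. These libraries have no replicate that passed for Imatinib_Imatinib, and no test was made.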

How the results depend on the processing

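Of 172 alternative fits of the 16 comparisons, 159 kept the number of members called and 13 moved it. Without the replicate block, 1 member (ENO1, adjusted p = 0.0477) was called across the dT pairs, in place of 0, and the block changed no other call. With the size factors of DESeq2 in edgeR, ENO1 gave 1 call for position in dT (adjusted p = 0.0232), 1 in the separate dT controls and 1 between the screens, where its sign was reversed (-0.37). The DESeq2 test gave 1 call for YM115 in Bio (LDHA). With no low-count filter there was 1 call for YM115 in dT (PGK1, log2 fold change 4.21, adjusted p = 0.0125), 1 for dT against Bio (LDHB, 1.29, adjusted p = 0.0166, resting on 4 dT libraries, 1 of which held 66 of 82 counts) and 1 for the drug effect by screen (PGK1, F = 5.80, adjusted p = 0.0121). Of the 146 dT counts of PGK1, 72 were in run 1 of YM115_Trametinib and 61 in run 2 of Trametinib_YM115. The call of LDHA for position in Bio went to 0 when genes had to be counted in at least 50% of the libraries, where LDHA was not tested, and to 0 with log2 total counts as a covariate. Leaving out 1 run each gave 0 to 1 calls for position in Bio and 0 to 1 between the screens, the latter from ENO1 without run 2 (0.45, adjusted p = 0.0324). The causes were not tested beyond the construction named. PGK1, PGAM1 and LDHB had the fewest counts of the members and could not be tested in most comparisons.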
